A study of Caenorhabditis elegans with 2 samples.

Results

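The snRNA genes of Caenorhabditis elegans were examined in the peak lists of a ChIP-seq experiment on the nuclear hormone receptor NHR-85. The members were all genes with the biotype snRNA in Ensembl release 115 (assembly WBcel235, the same as ce11), which gave 129 of 46926 annotated genes. A member was counted as having a peak when a summit lay from 1000 bp upstream to 200 bp downstream of its annotated start. Chromatin came from whole hermaphrodite L1 larvae of the transgenic strain OP539, genotype unc-119(tm4063) III; wgIs539, collected 6 h after synchronization by starvation following bleaching. The larvae stably expressed NHR-85 with a C-terminal GFP-FLAG tag, and chromatin was sheared by sonication and precipitated with an anti-GFP antibody. The 2 biological replicates form 1 group, and no other condition was sampled. Lists from an untagged strain or from another GFP fusion were not analysed here, so peaks that any GFP precipitation would give cannot be told apart from those of NHR-85. The cells that hold the transgene product in the whole animal were not resolved.

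NHR-85 belongs to the nuclear receptor family, whose members bind short DNA sites through a zinc-finger domain. Small nuclear RNAs form the core of the spliceosome: they pair with the ends of introns and with the branch site. In nematodes, SL RNAs donate the short leader that is trans-spliced onto many messages, and they are made by sls-1 and sls-2 genes. Most snRNA genes are transcribed by RNA polymerase II, while the RNA that carries the ACAGAGA box is transcribed by RNA polymerase III. Both kinds of promoter are recognised by the SNAP complex through a proximal sequence element just upstream of the start. In polymerase III snRNA promoters a TATA box follows it.

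The 4 deposited lists held 2410 reproducible peaks (the IDR list), 8396 pooled peaks, 8095 peaks of replicate 1 and 13297 peaks of replicate 2. The IDR list is, per its label, thresholded on the reproducibility of peaks between replicates. At the members with a peak in it, signal and rank were the same as in the pooled list, and its lowest signal was 97.2. Being in the IDR list is thus not independent of the pooled signal. A few lines repeat an interval, and 2404 distinct IDR peaks remained when the stronger line was kept. Signal below is the signal column as deposited. Replicate signals are those of the strongest summit in the window, and positions are those of the IDR summit unless stated. Read depth was not given in the sources used here.

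Of the 129 snRNA genes, 28 had a summit in their window in the IDR list. That is 21.7% of the snRNA genes (95% Wilson interval 15.5 to 29.6, counting error only), against 5.43% of all other genes, 8.08% of protein-coding genes, 22.5% of snoRNA genes and 6.47% of tRNA genes. In this list the share of snRNA genes was near that of snoRNA genes and above the other shares. In the pooled list 37 members (28.7%) had a summit, against 14.3% of all other genes, 19.4% of protein-coding genes, 42.2% of snoRNA genes and 34.4% of tRNA genes. In that longer list the snRNA share was thus below those of snoRNA and tRNA genes. Replicate 1 gave 37 members (28.7%), against 13.6% of all other genes. Replicate 2 gave 42 members (32.6%), against 20% of all other genes. The difference between gene types was not tested, since many members are near-identical copies and are not independent.

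The members fell into families by sequence. The sls-2, sls-1 and smy genes (SL2, SL1 and Sm Y RNAs) were taken by name and the others were joined at 75% identity or more. A family of 13 genes that includes sup-6 and sup-39, known from suppressor mutations in U1 snRNA, carries ACTTACCT near its 5′ end in 12 members, the letters by which U1 snRNA pairs with the 5′ splice site. A family of 24 genes around W05B2.8 carries the ACAGAGA box in 22 members, which in U6 snRNA pairs with the 5′ splice site. A family of 19 genes around F08G2.10 carries GTAGTA in 18, the branch-site letters of U2 snRNA, and one of 12 genes around F38E11.10 carries CCTTTTAC in 11, the loop letters of U5 snRNA. The annotation gives these genes no U number, and the families are named here by a member. The first bases of the RNA of sup-6 and sup-39, which both had a peak, are shown, written with T for U and with ACTTACCT in capitals.
sup-6, chrII:12944938-12944967, minus strand: aaACTTACCTggctgggggttatttcgtga
sup-39, chrII:6968528-6968558, minus strand: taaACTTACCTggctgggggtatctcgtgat

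The 80 bases before the start are shown for 12 members with an IDR peak, because the strongest summit of 17 of the 28 such members lay within 100 bp upstream of the start. Sequences are from the RefSeq copy of WBcel235 and read 5′ to 3′ toward the gene. Capitals mark a 2-part element, AACCCG and, 5 bases on, TGTC, and the run TATATAA. Where the whole element was absent, TGTC alone is in capitals if it began from 60 to 30 bases before the start. These letters were chosen after the sequences had been seen, and a match is a description, not a shown binding site.
sup-6, chrII:12944968-12945047, minus strand: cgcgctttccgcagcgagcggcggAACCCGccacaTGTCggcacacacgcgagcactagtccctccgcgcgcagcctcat
sup-39, chrII:6968559-6968638, minus strand: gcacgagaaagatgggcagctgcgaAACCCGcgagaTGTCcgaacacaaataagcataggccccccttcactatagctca
sls-2.8, chrIII:12250385-12250464, plus strand: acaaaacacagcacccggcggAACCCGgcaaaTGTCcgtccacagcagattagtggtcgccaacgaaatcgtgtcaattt
sls-2.14, chrIII:11090524-11090603, minus strand: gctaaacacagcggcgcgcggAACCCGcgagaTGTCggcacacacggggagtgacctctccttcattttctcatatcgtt
F42C5.12, chrIV:7316652-7316731, plus strand: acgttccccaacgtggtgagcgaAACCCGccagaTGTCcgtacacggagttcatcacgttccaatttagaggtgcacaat
sls-2.1, chrII:5844785-5844864, plus strand: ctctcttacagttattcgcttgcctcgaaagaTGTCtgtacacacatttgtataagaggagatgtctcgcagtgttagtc
sls-2.2, chrII:5543518-5543597, plus strand: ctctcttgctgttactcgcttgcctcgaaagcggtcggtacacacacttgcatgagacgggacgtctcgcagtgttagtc
C52E4.8, chrV:11980038-11980117, plus strand: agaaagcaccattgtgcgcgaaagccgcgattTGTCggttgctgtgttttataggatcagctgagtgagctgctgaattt
F38E11.10, chrIV:9444562-9444641, plus strand: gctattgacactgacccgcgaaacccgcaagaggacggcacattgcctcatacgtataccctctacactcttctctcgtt
W05B2.8, chrIII:10989599-10989678, plus strand: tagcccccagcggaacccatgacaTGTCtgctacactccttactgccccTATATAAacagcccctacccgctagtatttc
F54D8.7, chrIII:5080899-5080978, minus strand: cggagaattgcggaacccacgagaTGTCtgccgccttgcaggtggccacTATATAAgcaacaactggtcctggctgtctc
M163.13, chrX:14476787-14476866, plus strand: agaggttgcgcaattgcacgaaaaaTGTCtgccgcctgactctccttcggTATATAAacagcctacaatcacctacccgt

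For comparison, 4 members with no IDR summit in their window, chosen after the values had been seen, are shown in the same way. F10D2.13 is of the same family as C52E4.8, T08B6.62 and K09B11.11 are of the W05B2.8 family, and sls-1.10 is an SL1 RNA gene.
F10D2.13, chrV:7142859-7142938, minus strand: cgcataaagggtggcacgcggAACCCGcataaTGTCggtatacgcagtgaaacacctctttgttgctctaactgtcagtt
T08B6.62, chrIV:4885650-4885729, minus strand: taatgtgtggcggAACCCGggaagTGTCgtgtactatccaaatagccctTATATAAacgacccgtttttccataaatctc
K09B11.11, chrIV:13435887-13435966, minus strand: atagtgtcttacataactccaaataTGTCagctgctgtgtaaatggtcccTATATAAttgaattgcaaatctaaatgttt
sls-1.10, chrV:17120792-17120871, minus strand: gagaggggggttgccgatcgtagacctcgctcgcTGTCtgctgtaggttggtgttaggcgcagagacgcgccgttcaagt

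The element was read on the coding strand only. The whole element stood in the 80 bases before 29 of 129 snRNA genes (22.5%), against 24 of 346 snoRNA genes (6.94%), 3 of 19973 protein-coding genes (0.0150%) and 42 of 46761 other genes in all (0.0898%). Its first base lay between -71 and -55 bp, with a median position of -59 bp. The TGTC part, with or without the other, stood 60 to 30 bases upstream of 90 members (69.8%), against 9.17% of all other genes. TATATAA stood 45 to 15 bases upstream of 16 members (12.4%), against 1.27% of all other genes. Of these 16, 15 were in the W05B2.8 family, and the other was M163.13, an RNA of 80 bp outside the families.

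The whole element stood before members with and without a peak. It was found at 12 of the 28 members with an IDR summit (42.9%) and at 17 of the 101 without one (16.8%). mir-1831, inside sup-39, counts the same element, and the only IDR summits of sls-2.15 and sls-2.16 were shared with a neighbouring copy. At 5 of the 12 the strongest summit lay within 50 bp of the element's centre. A narrower window, from -100 to 0 bp, was set after the distances had been seen. With an IDR summit in it the element stood at 7 of 19 members (36.8%), and without one at 22 of 110 (20%). With up to 2 of its 10 letters off, and the first base 75 to 50 bases upstream, 21 of 28 (75%) and 64 of 101 members (63.4%) had it, against 343 of 46761 other genes (0.734%). All 10 smy genes had it in that looser form, and 1 of them had an IDR summit, at -437 bp. sls-2.4, sls-2.1 and sls-2.2, the 3 members with the strongest peaks, lacked the whole element.

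**Figure D1:**
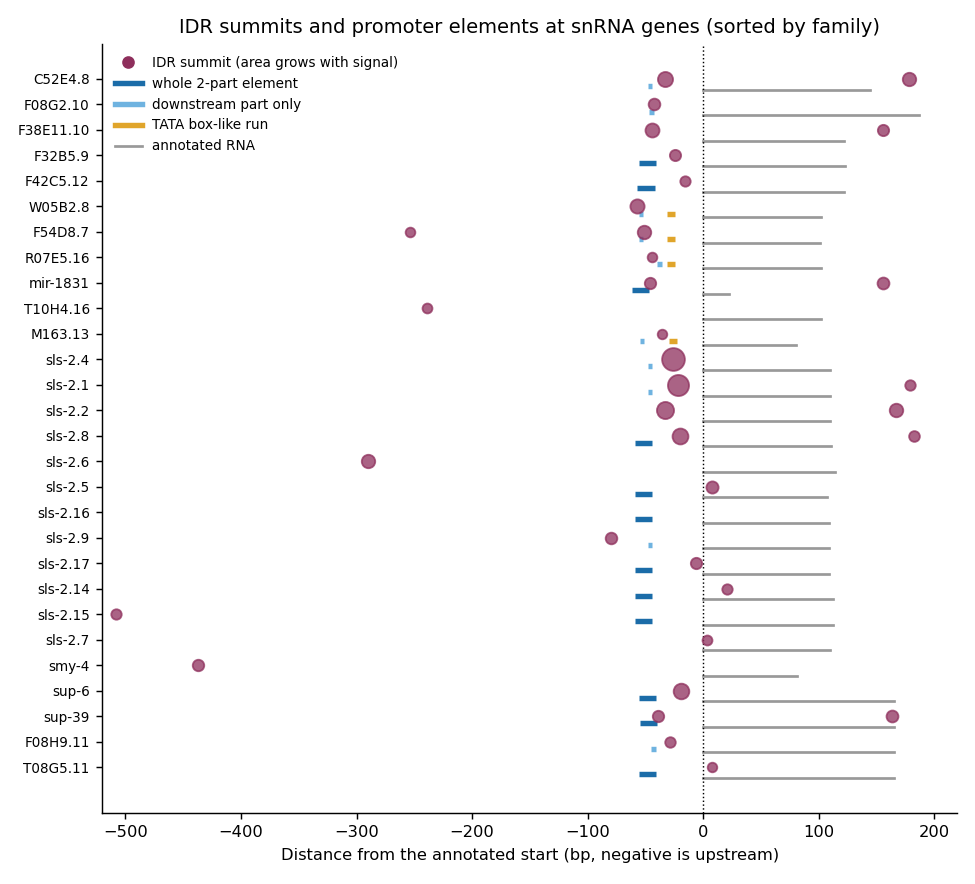
IDR summits (points, area grows with signal) and promoter elements (bars) relative to the annotated start in bp, for the 28 snRNA genes with an IDR summit, sorted by family; 2 summits lie beyond the left edge, at -846 bp for sls-2.16 and -954 bp for R07E5.16. Most summits sit between -60 and 25 bp, and 7 genes have a summit from 156 to 182 bp downstream.

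The SL2 RNA genes held the strongest peaks. 12 of 18 sls-2 genes had an IDR summit and 16 had a pooled summit. sls-2.4 had a signal of 450.9 in replicate 1 and 430.4 in replicate 2, and 883.8 in the IDR list at -26 bp, which ranked 31 of 2404 distinct peaks. sls-2.1 had 403.3 and 346.2 in replicates 1 and 2 and 747.1 in the IDR list at -22 bp, rank 51. Both replicates placed these 2 genes above every other member. sls-2.2 had 240.4 and 229.8 in replicates 1 and 2, with an IDR signal of 468.3 at -33 bp. sls-2.8 had 205.5 and 191.4, with an IDR signal of 394.0 at -20 bp. The replicates put both of these below sls-2.1.

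The other sls-2 peaks were weaker and less regular in place. sls-2.6 had 108.5 and 149.2 in replicates 1 and 2, and its summit lay at -290 bp. sls-2.9 had 82.8 and 83.6, with the summit at -80 bp. sls-2.17 had 73.7 and 90.9, with the summit at -6 bp. Neighbouring copies shared peaks. A peak with 92.7 and 104.6 in replicates 1 and 2 lay 8 bp inside sls-2.5 and at -846 bp from sls-2.16, and one with 72.2 and 63.1 lay 21 bp inside sls-2.14 and at -508 bp from sls-2.15. sls-2.7 had 65.0 and 60.3, with the summit at 3 bp. Within the family the IDR signal ranged from 110.3 to 883.8, over 10 distinct peaks. None of the 12 sls-1 genes had a summit in any of the 4 lists. Their windows lie in a repeat, with a median of 2.82% of 31-base words found once in the assembly, against 94.5% for sls-2. The part of this in the empty windows was not tested.

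In the sup-6 family 4 of 13 genes had an IDR summit. sup-6 had 216.3 in replicate 1 and 160.5 in replicate 2, and an IDR signal of 379.8 at -19 bp. sup-39 had 117.6 at 158 bp in replicate 1 and 73.7 at 18 bp in replicate 2. Its stronger IDR summit (189.7) lay at 163 bp, near the RNA's 3′ end, and a second one (168.5) at -39 bp. The 22 bp entry mir-1831 lies inside sup-39, carries the biotype snRNA and counts the same peaks. F08H9.11 had 52.9 and 81.2, with the summit at -29 bp, and T08G5.11 had 39.6 and 63.4, with the summit at 8 bp. T08G5.11 had the weakest IDR signal of the members, 97.4, beside a lowest value of 97.2 in the list.

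In the W05B2.8 family 3 of 24 genes had an IDR summit, all upstream of the start. W05B2.8 had 140.8 and 158.4 in replicates 1 and 2, with the summit at -57 bp. F54D8.7 had 117.7 and 148.0, with the summit at -51 bp, and both genes stood well above R07E5.16 (58.0 and 49.9, -44 bp) in each replicate. In R07E5.16 the strongest summit lay at -950 bp in replicate 1 and at -58 bp in replicate 2. Of the 6 copies of this family inside introns of mam-3, none had an IDR summit. The 3 members with a summit had 42.1% (R07E5.16), 55.0% (F54D8.7) and 55.6% (W05B2.8) of 31-base words found once within 100 bp of the start. The mam-3 copies had 5.85% to 25.7%, but F36A4.23 (77.2%) and B0205.15 (95.9%) also had no IDR summit, so the values of members with and without a summit overlapped.

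The remaining families had few members with peaks. In the F38E11.10 family 3 of 12 had an IDR summit. F38E11.10 had 129.2 and 157.4 in replicates 1 and 2 (-44 bp), and F42C5.12 had 66.3 and 60.8 (-16 bp). F32B5.9 had its IDR summit at -24 bp. Its strongest replicate summits differed in place, with 97.3 at 110 bp in replicate 1 and 79.0 at -24 bp in replicate 2. The family around F08G2.10 had 1 of 19, F08G2.10 itself, with 82.0 and 92.4 (-43 bp). C52E4.8 was 1 of 5 in its family of 142 to 144 bp RNAs, with 168.8 and 179.8 (-33 bp), the sixth strongest member. The 4 genes of the B0213.23 family had no IDR summit. smy-4, 1 of 10 smy genes, had 110.5 in replicate 1 and 58.4 in replicate 2 at -437 bp. This was the widest ratio between replicates among the members with an IDR summit. The smy windows are nearly unique, with a median of 98.8% of 31-base words found once. Outside the families, M163.13 had 46.0 and 50.5 (-36 bp) and T10H4.16 had 51.6 and 54.5 (-239 bp).

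**Figure D2:**
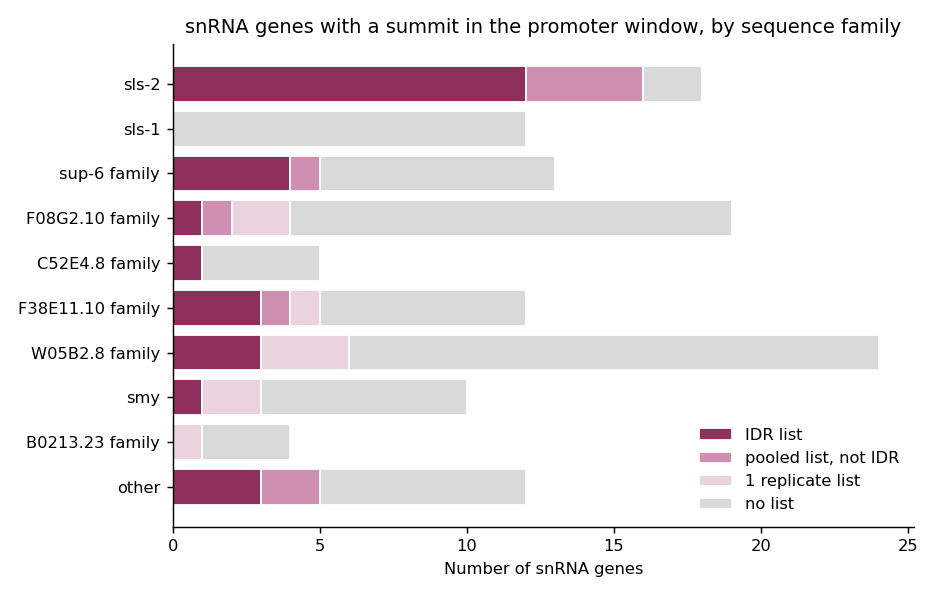
Number of snRNA genes in each sequence family (bars, split by the list in which a summit was found). The sls-2 bar is mostly genes in the IDR list, 12 of 18, and the sls-1 bar is wholly genes in no list, with 0 of 12 in the IDR list.

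Replicates gave like signals at the 28 members with an IDR summit. That list is itself thresholded on reproducibility, so likeness was favoured by the choice of members. Peaks shared between members count once for each. The signal was higher in replicate 1 at 14 members and higher in replicate 2 at 14, with a median log2 ratio of replicate 1 over replicate 2 of 0.03, between -0.68 (T08G5.11) and 0.92 (smy-4). The SD of this log2 ratio was 0.37 over the 28 members and 0.39 over 2391 IDR peaks with a summit in both replicates. The median distance between the strongest summits of the 2 replicates was 13.5 bp, and 17 of 28 members had them within 25 bp. At 4 members (F32B5.9, sup-39, mir-1831 and R07E5.16) they were over 100 bp apart. The nearest replicate 1 summit was a median of 5 bp from the IDR summit and the nearest replicate 2 summit 6.5 bp.

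**Figure D3:**
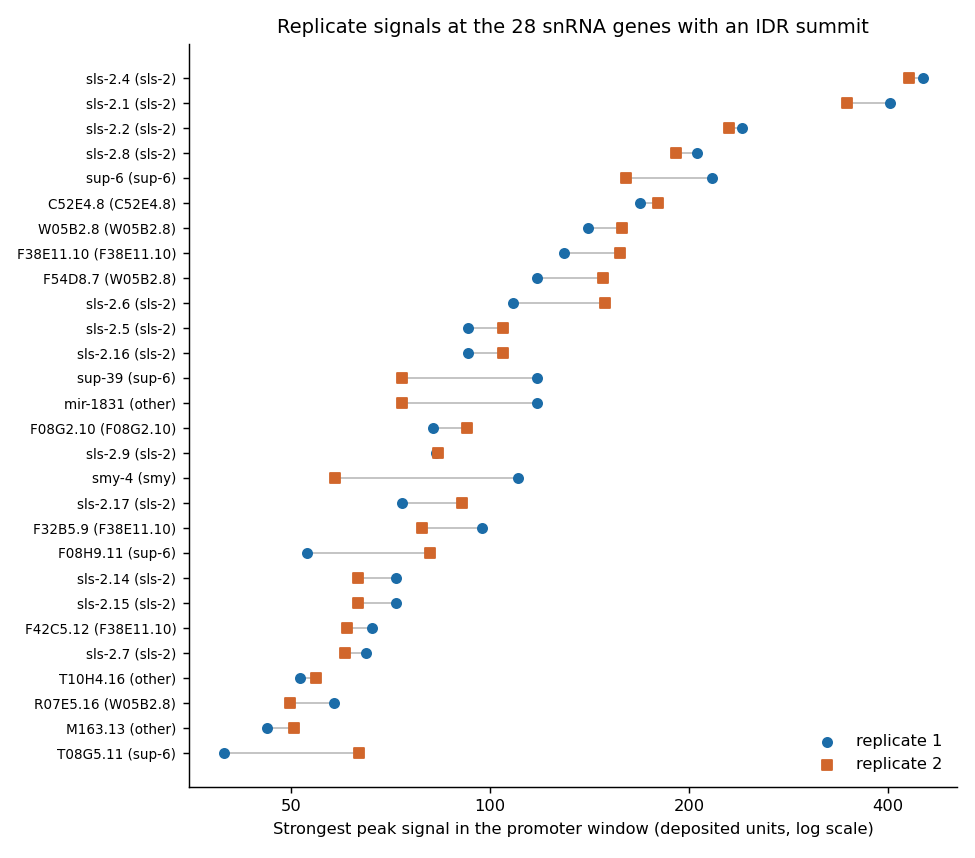
Strongest deposited peak signal in the promoter window in replicate 1 (circles) and replicate 2 (squares), log axis, for the 28 snRNA genes with an IDR summit, sorted by IDR signal. The replicates lie close together at sls-2.4 (450.9 and 430.4) and farthest apart at smy-4 (110.5 and 58.4).

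A summit in both replicate lists was found at 33 members, 31 of them with summits within 100 bp of each other. A further 18 members had a summit only outside the IDR list, 9 of them in the pooled list. The strongest of these were sls-2.18 (47.1 in replicate 1, 37.1 in replicate 2, pooled 82.9), sls-2.3 (57.3, 29.4, pooled 77.0), H27M09.6 (37.6, 22.1, pooled 66.6) and sls-2.10 (33.8, 24.3, pooled 61.1). sls-2.13 followed, with a pooled signal of 58.8, 38.8 in replicate 2 and no summit in replicate 1. In all 5 the pooled signal was below the lowest IDR signal of 97.2. Members with an IDR summit had the same signal and rank in both lists, so this order is no separate finding about these 5. Of the 18, 8 were found in replicate 2 alone and smy-8 in replicate 1 alone. No list held a summit for 83 members.

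The strongest IDR summit of a member lay at a median of -31 bp (quartiles -52.5 and -13.5, 28 members). That median was -78.5 bp for snoRNA genes, -65 bp for tRNA genes and -241 bp for protein-coding genes. For 17 of the 28 members (60.7%) it was between 100 bp upstream and the start, against 43.6% of snoRNA genes and 14.2% of protein-coding genes with an IDR summit. Counting any IDR summit in those 100 bp, 19 of 129 snRNA genes (14.7%) had one, against 0.836% of all other genes, 10.1% of snoRNA genes, 2.84% of tRNA genes and 1.23% of protein-coding genes. This narrow window was set after the distances had been seen. All distances run from annotated starts. How well these mark the place where transcription begins in each gene type was not tested.

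**Figure D4:**
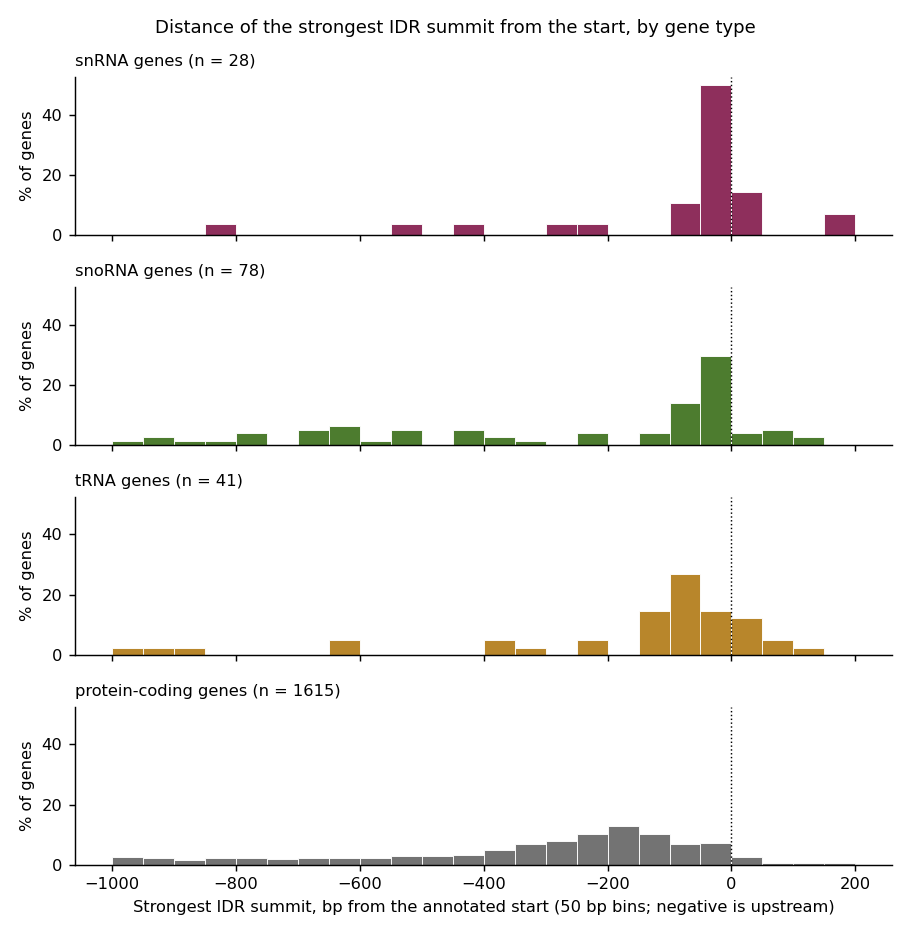
Share of genes with an IDR summit in the window whose strongest summit falls in each 50 bp bin from the annotated start, for snRNA, snoRNA, tRNA and protein-coding genes. snRNA summits gather just upstream of the annotated start (median -31 bp), and protein-coding ones are spread farther upstream of theirs (median -241 bp).

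Peak strength at the members was not unusual for the list. The median signal of a member's strongest summit was 185.9, against 190.9 for snoRNA genes, 169.9 for protein-coding genes and 152.9 for tRNA genes with an IDR summit, and 18 of 28 members lay above the list's median of 161.8. Among 33 distinct IDR peaks in member windows, 4 were in the strongest 240 of the list.

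Several strong peaks were double. 9 members had a second IDR summit in the window, and for 7 of the 8 distinct pairs the summits were 190 to 220 bp apart. sls-2.2 had 468.3 at -33 bp and 265.9 at 167 bp, and C52E4.8 had 348.6 at -33 bp and 260.7 at 178 bp. In F54D8.7 the weaker summit was the upstream one, 102.5 at -254 bp, as it was in sup-39. Of 254 neighbouring IDR summits within 1200 bp of each other anywhere in the genome, 88 (34.6%) were that far apart, so the spacing also occurs in the rest of the list.

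The 28 members had 25 distinct strongest peaks, and 12 of these (48%) also lay in the window of a protein-coding start, against 1322 of 2404 IDR peaks (55.0%). In 11 of the 12 the snRNA start was nearer. The exception was the peak of sls-2.6, at -290 bp from it and -95 bp from hgo-1, a gene of tyrosine breakdown, with spe-46 at -741 bp. The peak of C52E4.8 lay at -362 bp from snr-4, which encodes a core Sm protein and is transcribed the opposite way. The peak of sls-2.8 lay at -215 bp from Y75B8A.23 on the same strand and at -281 bp from tim-1 on the other.

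The other 9 shared peaks lay between -148 and -934 bp from a coding start. On the opposite strand these were W06D4.3 (-148 bp, with sls-2.7), clec-57 (-469 bp, with F08H9.11), F38E11.9 (-558 bp, with F38E11.10), egg-5 (-591 bp, with sls-2.4), D1086.8 (-733 bp, with smy-4) and cox-6A (-775 bp, with F54D8.7). On the same strand they were srz-97 (-516 bp, with F08H9.11), eif-2Bgamma (-747 bp, with sup-39), the histone gene his-42 (-837 bp, with F08G2.10) and H41C03.3 (-934 bp, with sls-2.1). For 21 of the 25 peaks the nearest start of any annotated gene was a member. The 3 others, besides that of sls-2.6, were nearest to ncRNA genes at sup-6 and sup-39 and to a tRNA gene, 52 bp away, at sls-2.9.

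The members lie between coding genes in 62 cases (14 with an IDR summit), in coding introns in 55 (13) and over a coding exon in 12 (1). By chromosome, 8 of 13 snRNA genes on chromosome III had an IDR summit (61.5%), against 10.1% of other genes there. On chromosome II it was 6 of 16 (37.5%), against 7.54%, and on chromosome I 5 of 16 (31.2%), against 7.93%. On chromosome V it was 5 of 40 (12.5%), against 5.82%, and on chromosome IV 3 of 41 (7.32%), against 2.69%. Chromosome IV has 19663 annotated other genes, against 3846 to 7830 on each other chromosome, but 359 IDR peaks, against 325 to 518. Its share of other genes is thus taken over many more entries, which also enter the shares given for all other genes. Over the genome, 8.08% of protein-coding genes had an IDR summit. The X chromosome holds 3 snRNA genes, and 1 had an IDR summit, against 7.39% of other genes there. Of the 40 members on chromosome V, 12 are the sls-1 genes without a summit. The 8 members with a summit on chromosome III include sls-2.15 and sls-2.16, whose only peaks also count for sls-2.14 and sls-2.5.

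Members with an IDR summit had more unique sequence. A median of 93.3% of 31-base words in the window were found once in the assembly for the 28 members with a summit, against 87.4% for the 101 without, of which 5 had no unique word. Within 100 bp of the start the median was 81.6% for members with an IDR summit and 55.0% for those without. Among the 34 members with at least 95% unique words in the window, 11 had an IDR summit (32.4%). Of these 11, 7 were sls-2 genes, out of 8 sls-2 genes with such a window. For smy it was 1 of 9 and for the B0213.23 family 0 of 4. The share over other genes with unique windows was not computed. No source used here says how the authors treated reads that fit several copies, and the part of this in the counts was not tested.

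The 2-part element, whose letters were chosen after the members' sequences had been seen, was then looked for on both strands of the whole genome. This gave 1026 matches. 27 of them ended 20 to 60 bp before an snRNA start on the same strand, and 9 of these (33.3%) had an IDR summit within 100 bp. The same held for 13 of 22 matches before snoRNA starts (59.1%) and 4 of 10 before ncRNA starts (40%), among them rpr-1, the RNase P RNA gene, named here after its value was seen. Before starts of other genes it was 0 of 5. Of 962 matches with no such start, 2 had an IDR summit (0.208%). With the pooled list these counts were 12 of 27 for snRNA, 13 of 22 for snoRNA, 5 of 10 for ncRNA, 1 of 5 for other genes and 14 of 962 for the matches without a start. With or without the element, 14.7% of snRNA and 10.1% of snoRNA genes had an IDR summit from -100 to 0 bp. Matches with and without a start thus also differ in lying near such a start. The part of the element in these shares was not tested.

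**Figure D5:**
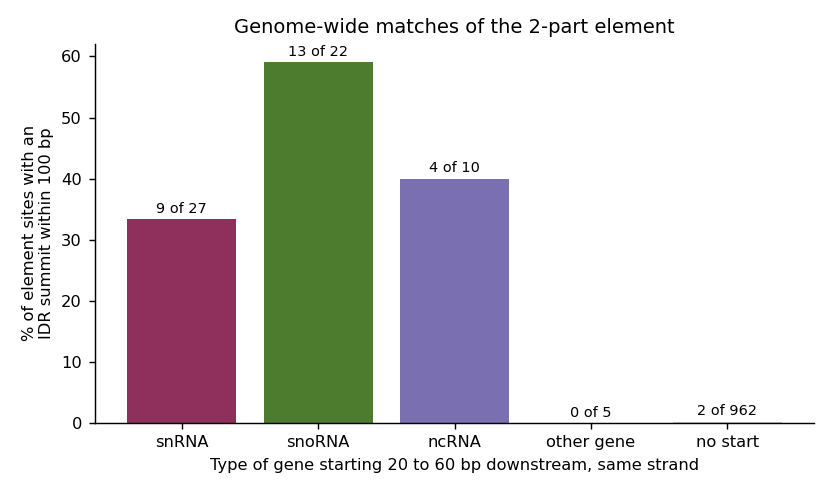
Share of genome-wide matches of the 2-part element with an IDR summit within 100 bp, by the type of gene starting 20 to 60 bp downstream on the same strand; counts are above the bars. Matches before snRNA (9 of 27), snoRNA (13 of 22) and ncRNA genes (4 of 10) often have a summit and those with no start (2 of 962) seldom do. The letters were chosen after the snRNA sequences had been seen, and the element was not tested apart from the start.

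Other short motifs were counted on either strand, within 50 bp of the summit. AGGTCA, a nuclear receptor site, stood at 1 of the 25 member peaks (4%), against 6.53% of 2404 IDR peaks. The E-box CACGTG also stood at 1 (4%), against 8.44%. GAGAGA stood at 3 (12%), against 25.5%, and TATAAA at 5 (20%), against 5.57%. In the 100 bases before the start, AGGTCA stood at 7 of 129 snRNA genes (5.43%), against 2.36% of all other genes, and CACGTG at 1 (0.775%), against 1.56%. GAGAGA stood at 10 (7.75%), against 6.75%, and TATAAA at 21 (16.3%), against 17.5%. GAGAGA was thus about as frequent before snRNA starts as before other starts.

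Protein genes of the snRNA pathway were read from a list of 56 genes, of which 54 were found by symbol. An IDR summit stood in the window of 11 of them (20.4%), beside 8.08% of protein-coding genes. It was 4 of 11 for Integrator, which cleaves the 3′ end of snRNA precursors, 3 of 7 for the Sm core proteins, 3 of 14 for other proteins of the snRNPs and 1 of 8 for SNAP complex and TBP genes. None of the 7 LSm genes, 3 SL snRNP genes and 4 assembly and modification genes had one. In the pooled list 27 of the 54 (50%) had a summit, beside 19.4% of protein-coding genes: 7 of 11 Integrator, 4 of 7 Sm core, 6 of 14 other snRNP, 1 of 8 SNAP complex and TBP, 5 of 7 LSm, 2 of 3 SL snRNP and 2 of 4 assembly and modification genes. ints-4 had 247.2 in replicate 1 and 200.01 in replicate 2, with the summit at 24 bp, and was the strongest. snr-4 shares its peak with C52E4.8. In the same order of replicates, snr-3 had 82.3 and 56.8, snr-1 had 53.3 and 88.3, and sftb-1, an SF3b subunit, had 77.5 and 68.5.

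The other pathway genes had weaker peaks. These were sftb-6 (72.2 and 62.1 in replicates 1 and 2), ints-9 (74.98 and 48.8), ints-2 (50.4 and 62.7), snpc-3.4 of the SNAP complex (50.7 and 63.4), prp-8, the central U5 protein (55.1 and 59.7), and ints-1 (58.9 and 36.3). Apart from ints-4 and snr-4, all had an IDR signal below the list's median of 161.8.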

How the data were processed

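ChIP-seq peaks of NHR-85-GFP were analysed in 2 biological replicates. Per the file headers and labels, the authors deposited peak lists on ce11: 1 for each replicate, 1 on pooled replicates and 1 of reproducible peaks (IDR), each made from alignments and a control alignment. No source used here names the aligner, the caller or its thresholds. The deposited signal column was used as it stands, and the summit offset, a distance in bp and no score, was added to the interval's start. Repeated intervals were reduced to the stronger line.

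Starts came from Ensembl release 115 and sequences from RefSeq, both WBcel235. The strongest summit per gene was taken from -1000 to 200 bp of any annotated start. Families (by name for sls-1, sls-2 and smy, otherwise by 75% identity over the longer sequence), uniqueness (31-base words) and motifs were computed with numpy 2.4.6 and Biopython 1.88. The search of windows was tested on planted summits. Named genes were all members with an IDR summit, the 5 strongest others and all pathway genes with one; any other gene was named after its values were seen. Members, lists and tests were chosen with earlier results of these data known. Intervals cover counting error only, and no test across genes was run. A further RNA stretch is not reported here.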

Additional observations from a re-analysis of the deposited data

How the results depend on the processing

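The main counts were 28 members (21.7%) with an IDR summit and 33 distinct peaks. On the replicate lists alone, the members ranged from 37 to 42, their share from 28.7% to 32.6% and the distinct peaks from 45 to 55. On the stronger part of the IDR list, split at the middle of its ranks, 18 members (14.0%) and 20 peaks were left, beside 2.94% of all other genes. With unique windows only, 11 of 34 members (32.4%), 11 peaks, 4 peaks shared with a coding promoter and a median distance of -80 bp were left. With unique sequence within 100 bp of the start, an alternative chosen after seeing the data, it was 9 of 29 (31.0%). Without members in a coding window, 16 members and 16 peaks were left, out of 91 members. The window from -100 to 0 bp, also chosen after seeing the data, gave 14.7%. The strongest replicate 1 peaks, as many as the IDR list holds, moved the median distance to -45 bp, against -31 bp. The replicate lists are longer than the IDR list, and the stronger part of that list, the filters on members and the narrow window leave fewer summits, members or bases to count. The members kept with unique windows included sls-2.16, sls-2.15, smy-4, sls-2.6 and T10H4.16, with summits at -846, -508, -437, -290 and -239 bp. The causes of the higher shares with unique sequence and of the median distances of -80 bp and -45 bp were not tested.

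By family, the pooled list gave 2 members for the F08G2.10 family and 5 for the ungrouped genes. On the replicate lists alone, the F08G2.10 family had 2 to 3, smy 2 on each, the ungrouped genes 3 to 5, the F38E11.10 family 4 to 5, the W05B2.8 family 3 to 6 and the B0213.23 family 0 to 1. The window from 2000 bp upstream gave smy 2. With unique windows only, sls-2 had 7 of 8 members left, the F38E11.10 family 1 of 2, and the F08G2.10 and W05B2.8 families 0 of 1 each. The sup-6 and C52E4.8 families had 0, since none of their members has such a window. Pathway protein genes with a summit numbered 27 on the pooled list, 24 to 31 on the replicate lists alone and 6 when a summit counted for its nearest start only, against 11. Among these results and settings, the other 115 alternative values stayed within their limits: 1.5 times a count, the Wilson interval of the share, or the replicate SD of the median distance. Of the strongest signals of the members, 52 values under another window were unchanged and 2 moved, those of sup-39 and mir-1831, to 168.5 with the window from 500 bp upstream to 100 bp downstream. sls-2.15 and sls-2.16 have no summit in that window and so no value. No paired analysis was possible because there is 1 group.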

Other observations

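The 2 element matches with an IDR summit and no start 20 to 60 bp downstream both had a snoRNA gene as the nearest annotated start. On chromosome II the match at 15025956 to 15025970 had a summit of signal 579.6, 9 bp from its centre, and Y53F4B.47 started 70 bp from the centre on the same strand. On chromosome V the match at 8500499 to 8500513 had a summit of signal 269.2, 38 bp from its centre, with ZK994.7 starting 73 bp from the centre on the same strand. smy-2, an Sm Y RNA gene that the annotation lists as snoRNA and that is no member, had the whole element and a summit of signal 292.2, 31 bp from its centre.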
